A study of Mus musculus with 2 samples.

Results

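The Mir181 family of the mouse comprises 6 microRNA (miRNA) genes, Mir181a-1, Mir181b-1, Mir181a-2, Mir181b-2, Mir181c and Mir181d, which lie as 3 genomic pairs. The genes were chosen by their GENCODE symbols, by a rule that uses no measured value, and all 6 were found among the 1973 annotated miRNA genes of the count tables. The libraries were made from total RNA of whole bladder of newborn mice of strain B6NCrl at postnatal day 0, with a size range of the RNA under 30 bases per the labels. The 2 libraries form a single group and come from different pups of the same pregnancy, 1 whole bladder per library. They are named pup 1 and pup 2 after their labelled numbers. No treatment, mutation or transgene is named in the labels, which leave the pups' sex unrecorded. The study therefore describes a tissue and the spread between littermates, and holds no contrast between conditions.

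A miRNA gene is transcribed into a longer precursor that folds into a hairpin. The nucleases Drosha and Dicer cut the hairpin, and 1 of its arms, the 5p or the 3p arm, is then usually kept in an Argonaute protein, where it guides repression of messenger RNAs. Pairing rests mainly on the seed, bases 2 to 8 of the mature miRNA, so miRNAs with the same seed are counted as 1 family. The miR-181 family is best known from lymphocytes, where miR-181a tunes the sensitivity of developing T cells to antigen, and from endothelium, where miR-181b restrains inflammatory signalling. Its members are also found in many solid tissues.

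The mature sequences are given first because they decide which reads can be placed on 1 gene. RefSeq (GRCm38.p6) held 12 mature arms of the 6 genes, of which 10 had distinct sequences, with the seed in capitals. The 4 distinct 5p arms had 1 seed, and no other mouse miRNA in that table had it.
miR-181a-5p (Mir181a-1 and Mir181a-2): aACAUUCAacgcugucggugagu
miR-181b-5p (Mir181b-1 and Mir181b-2): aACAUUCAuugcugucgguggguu
miR-181c-5p (Mir181c): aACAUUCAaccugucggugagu
miR-181d-5p (Mir181d): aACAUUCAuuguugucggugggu

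The 5p arms differ outside the seed. Counted from 1 at the 5′ end and with miR-181a-5p as the reference, miR-181b-5p differs by A9U, C10U and A21G, and miR-181d-5p by A9U, C10U, C12U and A21G. Between miR-181b-5p and miR-181d-5p the only substitution over 23 compared bases is C12U. Removing the base at position 11 of miR-181a-5p gives miR-181c-5p. The 5p arm of Mir181a-1 is identical to that of Mir181a-2, and the 5p arm of Mir181b-1 to that of Mir181b-2. With the neighbouring bases of the hairpins, the identical run is 28 bases long between the Mir181a copies and 26 bases between the Mir181b copies. A read that lies wholly inside such a run matches both copies equally well. No other miRNA gene of the GENCODE M21 transcripts holds the exact 5p arm of Mir181c or of Mir181d.

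The 3p arms are shown because, unlike the 5p arms, they separate the numbered copies. Each of the 6 genes has a 3p arm of its own, and these fall on 4 seeds.
miR-181a-1-3p: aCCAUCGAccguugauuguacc
miR-181c-3p: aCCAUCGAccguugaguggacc
miR-181a-2-3p: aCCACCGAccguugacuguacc
miR-181b-1-3p: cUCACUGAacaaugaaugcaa
miR-181b-2-3p: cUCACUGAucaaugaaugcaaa
miR-181d-3p: cCCACCGGgggaugaauguca

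The 3p arms of Mir181a-1 and Mir181c have the same seed and differ by U16G and U19G, counted from the 5′ end of the Mir181a-1 arm. The 3p arm of Mir181a-2 differs from that of Mir181a-1 by U5C, which lies in the seed, and U16C. The 3p arms of the Mir181b copies have the same seed and differ by A9U over 21 compared bases. The deposited counts are per gene and do not say from which arm a read came.

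The pairs lie on 3 chromosomes (coordinates of GRCm38, the assembly of mm10, from GENCODE M21). Mir181a-1 (ENSMUSG00000065565.1) is on chromosome 1 at 137966455 to 137966541 and Mir181b-1 (ENSMUSG00000065458.1) at 137966639 to 137966718, both on the plus strand and 97 bases apart. Both are intronic to Gm4258, a non-coding gene on the same strand, and to Gm26936, a long non-coding gene on the opposite strand. Mir181b-1 also lies inside an exon of the long non-coding gene A430106G13Rik, which overlaps the last 11 bases of Mir181a-1. Mir181a-2 (ENSMUSG00000065423.1) is on chromosome 2 at 38852735 to 38852810 and Mir181b-2 (ENSMUSG00000065578.1) at 38853830 to 38853918, on the plus strand and 1019 bases apart. They overlap introns of Nr6a1, which encodes an orphan nuclear receptor and runs on the opposite strand. All 89 bases of Mir181b-2 also lie inside an exon of Gm44144 on the opposite strand. Mir181c (ENSMUSG00000065483.1) is on chromosome 8 at 84178873 to 84178961 and Mir181d (ENSMUSG00000076338.1) at 84178716 to 84178787, on the minus strand and 85 bases apart. They lie in an intron of Nanos3, a gene of germ cells, on the same strand.

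**Figure D1:**
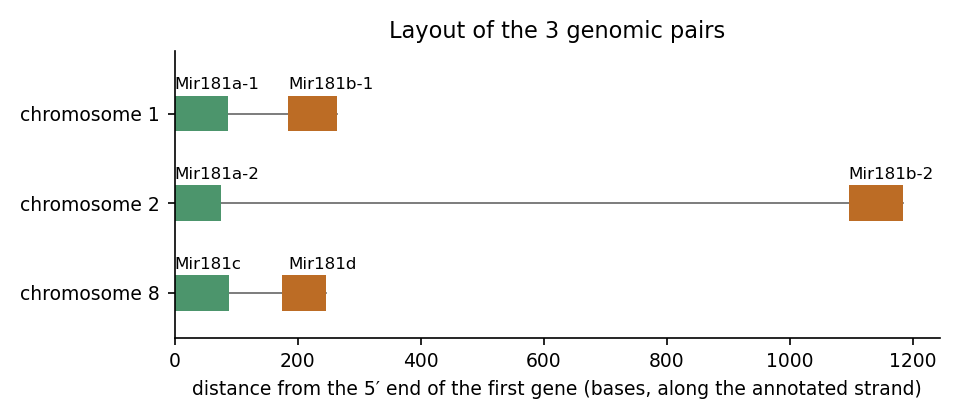
The 3 genomic pairs drawn to scale, with the distance in bases from the 5′ end of the first gene on the x axis and 1 row per chromosome; green boxes are the first and brown boxes the second gene of a pair along the annotated strand. The partners on chromosomes 1 and 8 are 97 and 85 bases apart and those on chromosome 2 are 1019 bases apart.

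Levels are counts on the sense strand per 1000000 sense-strand gene counts (CPM). Pup 1 had 7460621 such counts and pup 2 had 3636650, so that a count of 0 allows a level of up to 0.402 CPM for pup 1 and 0.825 CPM for pup 2. Intervals on levels are exact Poisson 95% intervals. As no molecular identifiers were used, these and the other intervals speak for read counting and not for differences in sample or library. Reads that mapped to several places were set apart from the genes by the authors and made up 22.7% of reads in pup 1 and 24.8% in pup 2. They outnumbered the counts of the 4 Mir181a and Mir181b genes 798 to 1 in pup 1 and 807 to 1 in pup 2. How many of them are miR-181a-5p or miR-181b-5p is not measured, so the levels of these 4 genes are those of the reads that could be placed and can be too low by an unknown amount. The tissue label was checked against miRNAs of its main cell types: Mir143 of smooth muscle was at 526451 and 523168 CPM in pups 1 and 2, 7 of 7 listed epithelial miRNA genes were detected, and Mir126a of endothelium was at 19915 and 19646 CPM.

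All 6 genes were detected, with at least 1 CPM and 3 counts in each library, against 335 of the 1973 annotated genes. Their counts summed to 13356 in pup 1 and 7176 in pup 2, which is 1790 CPM (95% interval 1760 to 1821) and 1973 CPM (1928 to 2019). The mean was 1882 ± 129 CPM (SD, n = 2), and 47 single miRNA genes lay above it. Mir181c and Mir181d held 75.9% of the family's counts in pup 1 and 76.0% in pup 2. The Mir181a and Mir181b genes held the remainder, 24.1% and 24.0%. These shares hold for reads that could be placed on 1 gene.

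Mir181c, whose arms are both unique to it, was the highest member by reads that could be placed on 1 gene. Whether miR-181a or miR-181b is more abundant cannot be told from these counts. It had 7187 counts in pup 1 and 3964 in pup 2, or 963 CPM (941 to 986) and 1090 CPM (1056 to 1124), with a mean of 1027 ± 89.6 CPM (SD, n = 2). It ranked 68 among the 335 detected genes. Mir181d, its neighbour, had 2949 and 1490 counts, or 395 CPM (381 to 410) and 410 CPM (389 to 431), and ranked 102. Its mean was 402.5 ± 10.2 CPM (SD, n = 2), and the intervals of the pups overlapped.

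Mir181a-1 had 2188 counts in pup 1 and 1283 in pup 2, or 293 CPM (281 to 306) and 353 CPM (334 to 373). Its mean of 323 ± 42.1 CPM (SD, n = 2) gave it rank 112. Mir181b-1, 97 bases away, had only 21 and 4 counts, or 2.81 CPM (1.74 to 4.30) and 1.10 CPM (0.300 to 2.82), and ranked 313. In pup 2 the interval of Mir181b-1 reaches below the limit that a count of 0 allows.

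Mir181b-2 had 914 counts in pup 1 and 389 in pup 2, or 123 CPM (115 to 131) and 107 CPM (96.6 to 118). Its mean was 115 ± 11.0 CPM (SD, n = 2), at rank 150. Mir181a-2 had 97 and 46 counts, or 13.0 CPM (10.5 to 15.9) and 12.6 CPM (9.26 to 16.9), at rank 236. The pups differed little for this gene, with an SD of 1.94% of the mean.

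**Figure D2:**
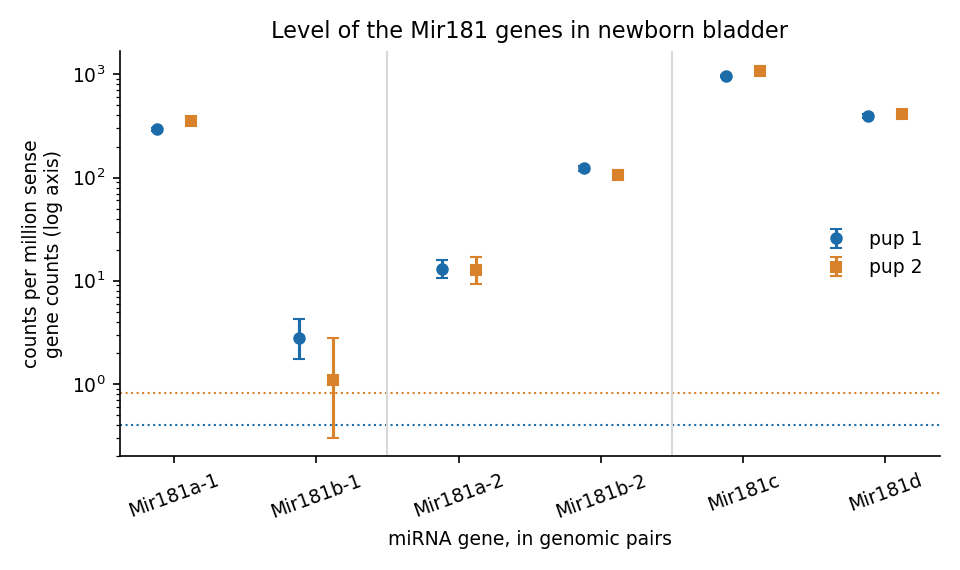
Level of each Mir181 gene in CPM on a log axis, with pup 1 as blue circles, pup 2 as orange squares and exact Poisson 95% intervals as bars; the dotted lines are the limits that a count of 0 allows in each library, and the grey lines separate the genomic pairs. Mir181c is highest at 963 and 1090 CPM, and Mir181b-1 is lowest at 2.81 and 1.10 CPM.

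The order of the members was the same in both pups: Mir181c, Mir181d, Mir181a-1, Mir181b-2, Mir181a-2, Mir181b-1. For no neighbours in this order did the range over the pups overlap. The narrowest step was from Mir181d to Mir181a-1, at 1.35-fold in pup 1 and 1.16-fold in pup 2. In pup 2 that step was smaller than the ratio of Mir181a-1 between the pups, which was 1.22-fold. The step from Mir181c to Mir181d was 2.55 ± 0.16-fold (SD, n = 2), and that from Mir181b-2 to Mir181a-2 was 8.94 ± 0.68-fold. A miRNA read can span a whole mature arm, so no length correction was used, and the order of the 6 genes was the same after division by the annotated gene length. The places of the Mir181a and Mir181b genes in this order hold for the reads that could be placed.

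Within the pairs, the partner that held most counts differed. On chromosome 1 the Mir181a gene was ahead, with Mir181a-1 at 99.0% of the counts of its pair in pup 1 (exact binomial 95% interval 98.6% to 99.4%) and 99.7% in pup 2 (99.2% to 99.9%). On chromosome 2 it was behind, with Mir181a-2 at 9.59% of its pair in pup 1 (7.85% to 11.6%) and 10.6% in pup 2 (7.85% to 13.9%). Mir181c held 70.9% of the counts of the pair on chromosome 8 in pup 1 (70.0% to 71.8%) and 72.7% in pup 2 (71.5% to 73.9%). These shares do not depend on the library size. For the pairs on chromosomes 1 and 2 they compare only reads that do not map to both copies.

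The shares of a pair were also compared between the pups, with a two-sided Fisher's exact test and Benjamini-Hochberg adjustment over the 3 pairs. The exact p was 0.0359 for Mir181a-1 and Mir181b-1 (adjusted 0.0538), 0.565 for Mir181a-2 and Mir181b-2 (adjusted 0.565) and 0.0200 for Mir181c and Mir181d (adjusted 0.0538). No pair passed the threshold of 0.05 after adjustment. The test sets read counting in 1 library against read counting in the other and is no test of a condition.

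**Figure D3:**
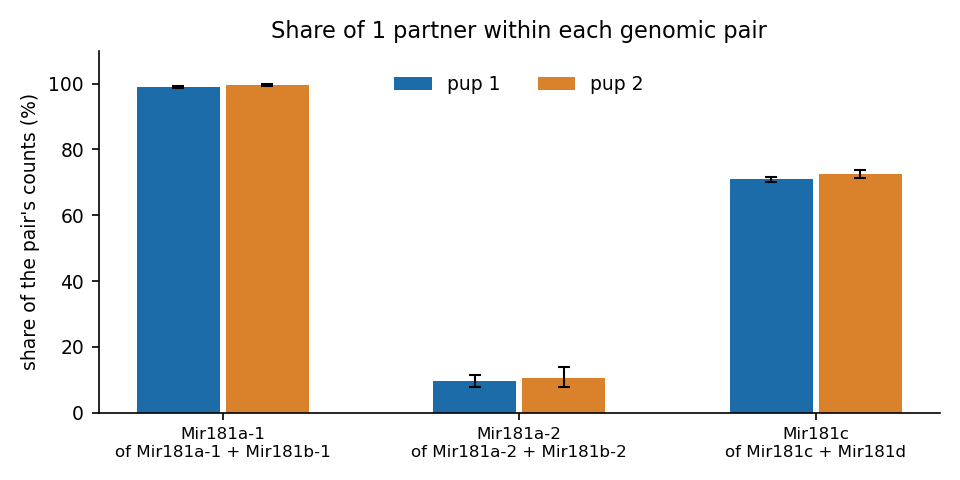
Share of a pair's sense-strand counts (%) held by the partner named first, with pup 1 in blue, pup 2 in orange and exact binomial 95% intervals as bars. Mir181a-1 holds 99.0% and 99.7% of its pair, Mir181a-2 9.59% and 10.6%, and Mir181c 70.9% and 72.7%.

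The numbered copies can also be compared across the pairs, by the reads that could be placed. Mir181a-1 was 22.6-fold above Mir181a-2 in pup 1 (95% interval 18.4 to 27.9) and 27.9-fold in pup 2 (20.8 to 38.3). For the Mir181b genes the copy on chromosome 2 was the higher, with Mir181b-2 43.5-fold above Mir181b-1 in pup 1 (28.3 to 70.7) and 97.3-fold in pup 2 (37.7 to 359). The intervals of the pups overlap for each of these ratios. The ratios compare only reads that do not map to both copies. A read wholly inside the identical run of the copies is not among them. How much mature miRNA each copy makes therefore cannot be told from these ratios, and their intervals do not cover this limit.

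Unequal counts are common between neighbouring miRNA genes in these libraries. Pairs of adjacent genes on 1 strand were taken within 2000 bases of each other and with at least 20 counts together in each library. Over these 106 pairs the median absolute log2 ratio of the levels of the 2 genes was 4.00, with quartiles of 1.82 and 7.19. The ratios use a prior count of 0.5, so that where a partner had no count the value depends on that prior. The values were 7.41 for Mir181a-1 and Mir181b-1, 3.15 for Mir181a-2 and Mir181b-2, and 1.35 for Mir181c and Mir181d. From the most unequal downward, these Mir181 pairs ranked 26, 63 and 84 of 106. This description was chosen after the values were seen and includes other genes with near-identical copies.

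Sharing of mature arms was described across the genes whose symbol was matched to arms in RefSeq. Detected genes without such a match, Mir143 among them, are left out of these counts and medians. Of 53 genes with 1 of 2 arms identical to an arm of another gene, 37 (69.8%) were detected, and these had a median of 21.7 CPM. Of 829 genes with no such arm, 266 (32.1%) were detected, and these had a median of 93.3 CPM. With undetected genes included the order of the medians was the reverse, at 8.15 CPM over the 53 genes and 0.205 CPM over the 829. Of 34 genes whose every arm was shared, 5 were detected. Mir181a-1 and Mir181b-2 ranked 6 and 9 among the 37 detected genes with 1 shared arm, and Mir181a-2 and Mir181b-1 ranked 25 and 36. Mir181c and Mir181d lay above the median of the detected genes with no shared arm.

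**Figure D4:**
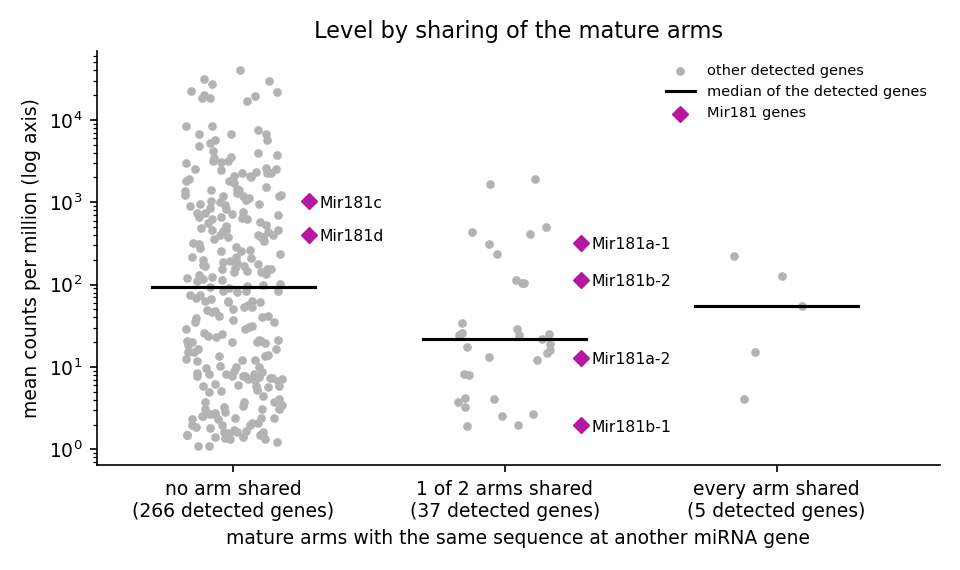
Mean level in CPM on a log axis of the detected miRNA genes whose symbol was matched to arms in RefSeq, grouped by how many of their mature arms have the same sequence at another gene; grey points are other genes (spread sideways only to separate them), black lines are medians of the detected genes shown and magenta diamonds are the Mir181 genes. Mir181a-1 and Mir181b-2 lie above and Mir181a-2 and Mir181b-1 below the median of 21.7 CPM of the detected genes with 1 shared arm.

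Between the littermates, Mir181c and Mir181a-1 were modestly higher in pup 2, and no member was called higher in pup 1. All 6 members reached the minimum of 10 counts summed, as did 362 genes in all. Mir181c had a log2 ratio of pup 2 over pup 1 of 0.20 (counting SE 0.029), or 1.15-fold, with an adjusted p of 1.69e-11 by the two-sided exact binomial test with Benjamini-Hochberg adjustment over the 362 genes. Mir181a-1 had a log2 ratio of 0.29 (counting SE 0.051), or 1.22-fold, with an adjusted p of 9.66e-08 by the same exact test. These are 2 of 6 members, against 117 of 362 genes, or 32.3%, over the whole table, and 19.1% that were higher in pup 2. The share called higher in pup 1 was 13.3%. Of the 117 genes that reached 1000 counts in both libraries, 68.4% passed, and Mir181c, Mir181d and Mir181a-1 are of that depth. The share of members past the test was thus near that of all genes. None of the members passed with a ratio of at least 2-fold, against 2.76% of all tested genes.

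The other members did not pass. The log2 ratios were 0.08 (counting SE 0.046) for Mir181d, -0.17 (counting SE 0.087) for Mir181b-2, -0.01 (counting SE 0.26) for Mir181a-2 and -1.20 (counting SE 0.75) for Mir181b-1. Their exact adjusted p-values were 0.225, 0.127, 1 and 0.205. The median log2 ratio over the 6 members was 0.03, and over all 362 tested genes it was also 0.03. The median absolute log2 ratio was 0.19 for the members and 0.16 for all tested genes.

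This exact test compares the reads of 2 libraries and allows for read counting alone. When the spread between the libraries was included, by edgeR's exact test with their common dispersion (a biological coefficient of variation of 13.2%), 0 of the 6 members passed, and 0 had an unadjusted p under 0.05. The unadjusted p was 0.457 for Mir181c and 0.292 for Mir181a-1, with an adjusted p of 1 for both. By that test 5 of the 362 genes, or 1.38%, passed. The dispersion was estimated from the same difference between the 2 libraries that is then tested, so small ratios can hardly pass, and a miss does not show that the pups were alike. With 1 library on each side, neither test can speak of animals in general.

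**Figure D5:**
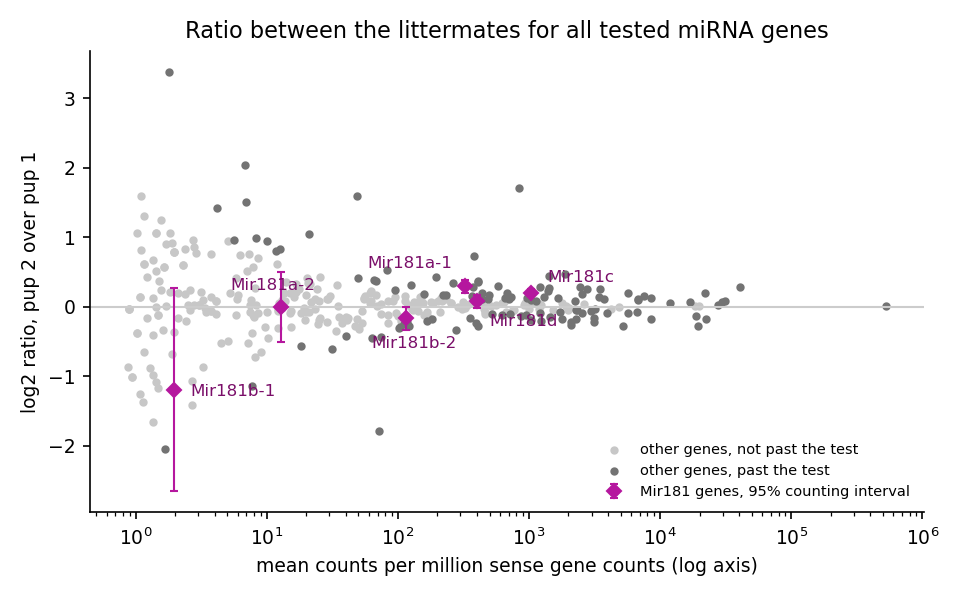
Log2 ratio of pup 2 over pup 1 against the mean level in CPM on a log axis for the 362 tested miRNA genes, with genes past the exact binomial test in dark grey, others in light grey and the Mir181 genes as magenta diamonds with 95% counting intervals. Mir181c at 0.20 and Mir181a-1 at 0.29 lie among many other genes of their level, and the interval of Mir181b-1 is wide.

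Because miR-181 is known from lymphocytes and endothelium, miRNAs of blood cells and endothelium are given beside these ratios. Of 9 listed leukocyte and red cell genes 6 were found by symbol and 5 tested, and none of the 6 was at 0 in both libraries. Their sum was 1148 CPM in the first pup and 2300 CPM in the second, led by Mir223 of myeloid cells at 396 and 1274 CPM. Mir223, Mir144 and Mir451a, 3 of the 5 tested, passed the exact binomial test as higher in pup 2, against 19.1% of all tested genes. By edgeR's exact test with the common dispersion Mir223 still passed (adjusted p = 3.38e-07), and Mir144 (adjusted p = 0.357) and Mir451a (adjusted p = 1) did not. Mir150, a miRNA of mature lymphocytes, was at 29.1 and 31.9 CPM in pups 1 and 2 and did not pass (log2 ratio 0.16, counting SE 0.17). Mir155, of activated lymphocytes and macrophages, was at 77.3 and 70.7 CPM and did not pass either (log2 ratio -0.10). The listed symbols Mir142a, Mir146a and Mir486a were not found, so the sum does not cover them. The annotation holds Mir146 and Mir486, which are also outside the sum. Mir486 was at 53.1 and 56.9 CPM in pups 1 and 2 (log2 ratio 0.13, exact binomial adjusted p = 0.506). Mir146 was at 19.3 and 23.6 CPM (log2 ratio 0.32, exact binomial adjusted p = 0.257), and neither passed. Of the 3 measured endothelial genes, Mir221 (log2 ratio 0.33) and Mir222 (0.19) passed the exact binomial test as higher in pup 2, and Mir126a did not (0.00). Calls by that test were also present in lists of other cell types. Of 6 tested smooth muscle and mesenchyme genes, 3 were called higher in pup 2 and 1 higher in pup 1. Of 7 tested bladder epithelium genes, 1 was called higher in pup 2 and 2 higher in pup 1. Among 5 tested neuron and glia genes 0 were called. With the common dispersion neither Mir221 nor Mir222 passed (edgeR adjusted p = 1 for both). In bulk tissue, more cells of a type and more RNA per cell cannot be told apart, and the part of blood or endothelial cells in the ratios of Mir181c and Mir181a-1 was not tested.

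Genes of like level were found by the distance between log2(CPM + 1) values over the 2 libraries. The 4 genes nearest to Mir181c were Mir467e at 1008 and 1058 CPM (distance 0.078), Mir425 at 1044 and 1068 CPM, Mir15b at 924 and 993 CPM and Mir423 at 1019 and 976 CPM. Mir433 and Mir31 were nearest to Mir181d, at distances of 0.099 and 0.18, and Mir669l and Mir320 to Mir181a-1, at 0.16 and 0.21. The nearest to Mir181b-2 were Mir671 and Mir665, at 0.061 and 0.079, and the nearest to Mir181a-2 were Mir466n and Mir30c-1, at 0.050 and 0.086. With 2 libraries, such likeness is a likeness of level only.

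No member had a count on the strand opposite to its gene in either library. With 13356 counts of both strands in pup 1 and 7176 in pup 2, a count of 0 allows an opposite-strand share of up to 0.0225% and 0.0418%. Pooled over the counts of all genes, the share was 3.17% in pup 1 and 3.18% in pup 2. This pooled share does not tell how many single genes had no opposite-strand count. Among reads that could be placed on 1 gene, the genes that overlap the Mir181 genes on the opposite strand therefore left no detectable count at them at this depth. They include Nr6a1 over Mir181a-2 and Mir181b-2, and Gm44144, an exon of which covers Mir181b-2. An opposite-strand read wholly inside the identical run of the Mir181a or Mir181b copies would match both copies and be set apart, so such reads could not be seen here.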

How the data were processed

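Small RNA of 2 newborn bladders was sequenced, 1 library per pup. The authors deposited 1 table of raw read counts per library, with a row per GENCODE M4 miRNA gene, from reads placed on mm10, per the labels and the README text beside the tables. Aligner, counter and filters: not given in the sources used here. Columns carry no header, and their strand was read from the values: for every gene the first is the sum of the others, of which the second was taken as sense. Totals of unassigned reads were left out of library sizes; unmapped reads came to 8.19% in pup 1 and 7.32% in pup 2, and reads mapped to several places to 22.7% and 24.8%.

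Symbols and positions are from GENCODE M21 by Ensembl gene number (1894 of 1973 matched). The identifier of Mir181c has another version there, so its borders can differ from those used in counting. Mature arms are from RefSeq (GRCm38.p6), which held all 12 arms and 5 hairpins of the family; the hairpin of Mir181c was not used here. Arms were searched as exact matches in GENCODE M21 transcripts, not in the genome.

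Pups were compared gene by gene with an exact binomial test (two-sided, conditional on the summed count) on TMM-scaled library sizes from edgeR 4.0.16 in R 4.3.3, over genes with at least 10 counts summed, with Benjamini-Hochberg adjustment and a threshold of 0.05. Ratios use a prior count of 0.5. The test was first run on simulated counts that held read counting noise alone, which is what the test assumes. It called 27 of 50 genes changed by 1.25-fold, 47 of 50 changed by 4-fold and 3 of 162 unchanged genes. That run does not cover spread between libraries. A model with residual degrees of freedom could not be fitted between 2 libraries. Size factors of DESeq2 1.42.0 were an alternative scaling. The tables differ beyond counting noise at 117 genes and were kept as 2 samples. Python 3.11.15 with scipy 1.17.1 did the rest.

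The text names the 6 members, the 4 genes nearest in level to the highest member, the 2 nearest to each other member of at least 10 CPM, and up to 3 leading genes of a marker list. Mir146, Mir150, Mir155, Mir486 and the genes that overlap members fall outside this rule. The rule for the members uses symbols alone, but the family and the lists were picked for study with earlier results of these data known.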

Additional observations from a re-analysis of the deposited data

How the results depend on the processing

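The mean level of the family, 1882 CPM, was 3959 CPM when Mir143 was left out of the total, 1229 per 1000000 reads when all reads were the total, and 1429 CPM when only Mir181c and Mir181d were summed. It moved by less than the SD with counts of both strands or TMM-scaled library sizes, and was 1790 to 1973 CPM when either pup was left out. Of the 6 members, 2 differed between the pups with total count scaling, DESeq2 size factors and counts of both strands. The shares of all tested genes that passed were 34.0%, 34.5% and 33.6% in that order. With a minimum of 100 counts it was 2 of 5 members tested, against 48.8% of all tested genes. With no filter on low counts it was 3 of 6, against 17.7% of all tested genes. There Mir181b-2 joined (log2 ratio -0.23, exact adjusted p = 0.0427). With edgeR's exact test and the common dispersion, which takes its spread from the same 2 libraries, 0 members passed, against 1.38% of all tested genes. A minimum of 2-fold also left 0 members, against 2.76% of all tested genes. No member's ratio changed sign under these alternatives. The shares within the pairs could not change with counts of both strands, because no member had a count on the opposite strand. No paired analysis was possible because the samples form 1 group. Leaving out a pup leaves no comparison between pups. Depth limits Mir181b-1, which had 21 and 4 counts, and reads mapped to several places limit all 4 Mir181a and Mir181b genes.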
